A study of Mus musculus with 8 samples.

Results

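Lymphocyte and MHC class II genes were examined in mouse brown adipose tissue (BAT) after thoracic aortic constriction (TAC), which loads the left ventricle with pressure, or a sham operation (Sham). The 35 genes were 10 genes of B cells, 15 of T cells, 3 of lymphoid organisation (Ltb, Ccr7 and Cxcl13), 2 carried by nearly all leukocytes (Cd52 and Ptprc) and 5 of antigen presentation on MHC class II (Cd74, H2-Aa, H2-Ab1, H2-Eb1 and Ciita). Every probe whose RefSeq accession belongs to one of these symbols was taken, which gave 46 probes for the 35 genes, out of 55681 probes and 21150 named genes on the array. The genes were chosen by their measured levels, many of them being high on TAC replicate 1 of these arrays, so their levels on that array are given as a description, without a test.

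Each group held 4 male C57BL/6NCrSlc mice, operated at 11 weeks of age and kept on normal chow, and each mouse gave 1 one-colour Agilent array from total RNA of BAT at 13 weeks of age. No genetic change or drug is named for either group. The interval from surgery to collection reads 2 weeks in one label and 4 weeks in another, and the ages of 11 and 13 weeks match the 2 weeks. The 7 arrays with scanner files lay on 1 slide, Sham in one row and TAC in the other, so place on the slide and surgery cannot be told apart.

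Levels below are log2 intensities divided by a constant of each array, in which 0 lies near the 75th percentile of the array's probes. They come from the deposited table of all 8 arrays, the only source used here for Sham replicate 1, while detection and tests come from the scanner files of the other 7. On these 7 arrays 54.5% to 64.2% of the spots were well above background. Of the 35 genes, 25 were tested, their leading probe being above background on 3 or more of the 7 arrays, namely 4 of 10 B cell genes, 11 of 15 T cell genes and all 10 others, and 21 of the 25 were above background on all 7. The leading probe of a gene is the one with the highest mean level. Since the tissue was measured in bulk, fewer cells of a type and less RNA per cell cannot be told apart in any of these values.

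The tissue label was borne out by its defining genes, since all 11 brown adipocyte genes examined, Ucp1 among them, were well above background on all 7 arrays. A set of 3 arrays stood apart on the immune genes and are named throughout. TAC replicate 1 was high on most of them, Sham replicate 1 was second on the antigen presentation genes, and Sham replicate 3 was above the median on some lymphocyte genes (Cd79b, Ltb, Ccr7, Cd3d, Cd3g and Lef1) and on part of the neutrophil genes, and below it on Cd52, Ptprc and Cd74. The brown adipocyte genes averaged -1.10 on TAC replicate 1, -0.01 on Sham replicate 1 and 0.48 on Sham replicate 3, as log2 differences from each gene's median over the 8 arrays. The medians of these genes were smaller, at -0.53 on TAC replicate 1 and 0.27 on Sham replicate 3. Their part in the immune values was not tested.

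MHC class II molecules present peptides from engulfed proteins to CD4 T cells. They are made mainly by B cells, dendritic cells and macrophages, and the invariant chain, encoded by Cd74, guides them to the compartment where peptides are loaded. Their promoters share a set of short elements, among them the Y box, which binds the general factor NF-Y, and the factor CIITA, which does not touch DNA itself, switches them on through the proteins bound there. B and T cells circulate through blood and lymph nodes, and resident and passing lymphocytes are a minor part of healthy fat. Fat depots can also carry lymph nodes, whose stroma makes the chemokines Ccl19 and Ccl21a and whose high endothelial vessels make Glycam1.

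Promoter sequences are printed for H2-Aa, H2-Eb1 and the related gene H2-Oa, which hold the Y box. These genes had the same leading arrays, as their values will show. So did Ctss and all 9 MHC class I pathway genes, so these arrays are not particular to the printed genes. RefSeq's promoter table on GRCm38.p6 holds 21 of the 35 genes, of which 2 are MHC class II genes, and the 250 bases before the start site are printed 5′ to 3′ with the Y box letters CTGATTGG in capitals.
H2-Aa, chr17:34287824-34288073 (minus strand): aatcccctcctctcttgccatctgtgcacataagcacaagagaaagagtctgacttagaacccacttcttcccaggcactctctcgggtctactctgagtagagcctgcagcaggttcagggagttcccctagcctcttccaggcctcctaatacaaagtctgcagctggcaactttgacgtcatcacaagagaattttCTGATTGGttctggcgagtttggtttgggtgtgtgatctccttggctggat
H2-Eb1, chr17:34305617-34305866 (plus strand): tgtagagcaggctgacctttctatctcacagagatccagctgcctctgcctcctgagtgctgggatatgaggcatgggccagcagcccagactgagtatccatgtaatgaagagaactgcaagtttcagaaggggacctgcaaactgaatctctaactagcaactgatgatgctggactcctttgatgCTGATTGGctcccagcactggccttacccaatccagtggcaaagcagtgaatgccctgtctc
H2-Oa, chr17:34092129-34092378 (plus strand): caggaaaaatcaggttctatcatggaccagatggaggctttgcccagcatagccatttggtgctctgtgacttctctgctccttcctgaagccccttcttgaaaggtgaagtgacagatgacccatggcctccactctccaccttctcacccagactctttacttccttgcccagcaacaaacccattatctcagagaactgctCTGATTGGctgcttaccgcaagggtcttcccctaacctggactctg
The Y box letters began 51, 62 and 46 bases before the start site of H2-Aa, H2-Eb1 and H2-Oa, on the strand of the gene in each. Searched on both strands of the window from 250 bases before to 50 bases after the start site, these letters were present in 1346 of 32851 promoters (4.10%). Among the 21 genes with a promoter they were found in H2-Aa and H2-Eb1, and in none of 6 B cell or 10 T cell genes. Of the other MHC class II pathway genes, 1 of 9 with a promoter held them, which was H2-Oa. Any link of the letters to the levels was not tested. Of the MHC class I pathway genes, which present peptides from inside the cell, 4 of 7 with a promoter held them (H2-D1, H2-K1, Psmb9 and Tap1). The octamer ATTTGCAT, known from promoters of B cells, was in 1.74% of all promoters and in 0 of the 21, which says only that these letters are not in this window.

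Of the 5 MHC class II genes, 4 were highest on TAC replicate 1, followed by Sham replicate 1, with the other 6 arrays below both. Cd74 had levels of 4.80, 4.15, 3.82 and 4.25 in Sham replicates 1 to 4 and 5.39, 4.07, 4.05 and 3.98 in TAC replicates 1 to 4. H2-Ab1, a β chain, was at 5.65, 4.94, 4.84 and 5.09 in Sham replicates 1 to 4 and 6.23, 4.87, 4.92 and 4.80 in TAC replicates 1 to 4. Both put TAC replicate 1 and Sham replicate 1 above all 6 other arrays, and the 2 groups overlapped.

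H2-Aa, the α chain that pairs with it, was at 1.97, 1.46, 1.23 and 1.46 in Sham replicates 1 to 4 and 2.79, 1.30, 1.16 and 1.24 in TAC replicates 1 to 4. H2-Eb1, the other β chain, was at 5.53, 4.73, 4.81 and 4.88 in Sham replicates 1 to 4 and 5.93, 4.61, 4.62 and 4.55 in TAC replicates 1 to 4. The order of the leading arrays was the same in these genes, and the second probe of H2-Ab1 gave the same order, with 1.36 above its median on TAC replicate 1 and 0.84 on Sham replicate 1. Against the median of the 8 arrays, intensity on TAC replicate 1 was 2.43-fold for Cd74, 2.66-fold for H2-Aa, 2.47-fold for H2-Ab1 and 2.24-fold for H2-Eb1, and on Sham replicate 1 it was between 1.51-fold (H2-Aa) and 1.69-fold (H2-Eb1).

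Ciita, the transactivator, differed from its target genes on TAC replicate 1. Its levels were -3.46, -4.08, -3.63 and -3.68 in Sham replicates 1 to 4 and -3.70, -3.80, -4.08 and -4.54 in TAC replicates 1 to 4, so that TAC replicate 1 lay near the middle and Sham replicate 1 was highest. Its probe was well above background on 5 of the 7 scanner arrays and has less precision than the others. Pearson's r of Ciita with the mean of the 5 MHC class II genes, itself among them, was 0.60 over the 8 arrays and 0.81 over the 6 without TAC replicate 1 and Sham replicate 1. Group means were 4.25 ± 0.41 (SD, n = 4) in Sham and 4.37 ± 0.68 (SD, n = 4) in TAC for Cd74, and 5.13 ± 0.36 (SD, n = 4) in Sham and 5.20 ± 0.69 (SD, n = 4) in TAC for H2-Ab1. Without TAC replicate 1 the TAC mean was 4.03 ± 0.05 (SD, n = 3) for Cd74, 1.23 ± 0.07 (SD, n = 3) for H2-Aa, 4.86 ± 0.06 (SD, n = 3) for H2-Ab1 and 4.59 ± 0.04 (SD, n = 3) for H2-Eb1. The 3 remaining TAC mice were thus almost level with each other, and lay inside the range of Sham replicates 2 to 4 for Cd74, partly below it for H2-Aa and H2-Ab1, and wholly below it for H2-Eb1.

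Cd52 and Ptprc, the second of which encodes CD45, mark leukocytes of nearly every kind, and of the 5 groups of genes they had the highest mean deviation on TAC replicate 1. Cd52 was at 2.31, 1.44, 1.16 and 1.30 in Sham replicates 1 to 4 and 3.56, 1.34, 1.42 and 1.18 in TAC replicates 1 to 4. Ptprc was at -1.77, -2.12, -3.04 and -2.55 in Sham replicates 1 to 4 and -0.50, -2.70, -2.58 and -2.82 in TAC replicates 1 to 4. In both genes TAC replicate 1 was highest, Sham replicate 1 second, and Sham replicate 3 the lowest array. Intensity on TAC replicate 1 was 4.52-fold the median of the 8 arrays for Cd52 and 4.20-fold for Ptprc.

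**Figure D1:**
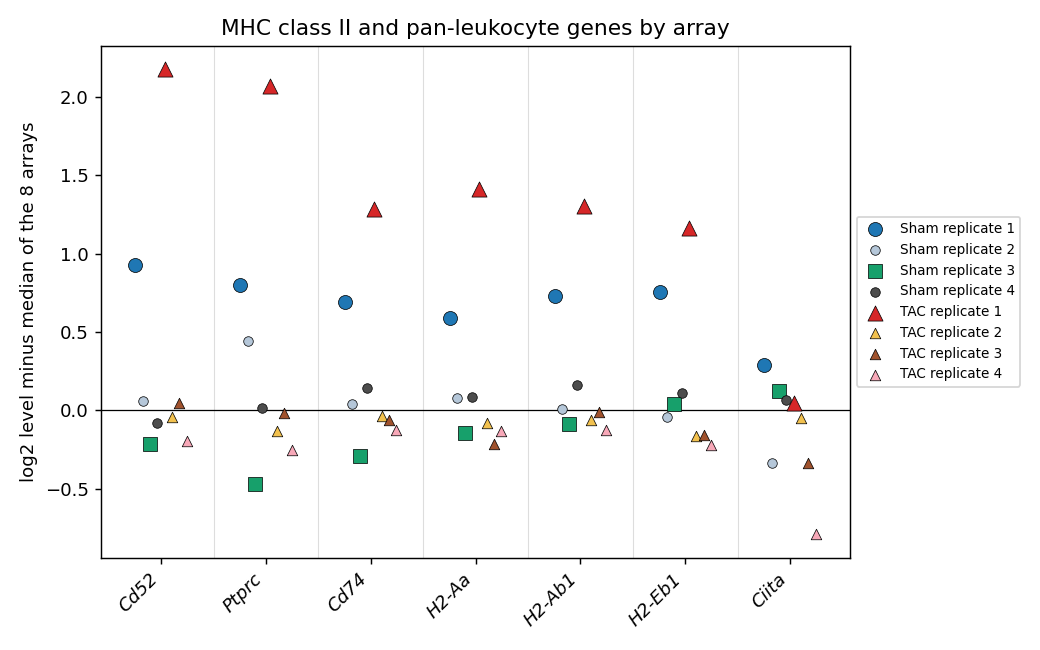
Level of the 2 pan-leukocyte and 5 MHC class II genes on each array, as log2 minus the gene's median over the 8 arrays (vertical axis); each point is 1 mouse, circles and squares for Sham and triangles for TAC. TAC replicate 1 lies 1.16 to 2.18 above the median in every gene but Ciita, and Sham replicate 1 is second in the same 6 genes.

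Most of the T cell genes tested, 7 of 11, were highest on TAC replicate 1. Cd3d and Cd3g encode chains of the CD3 complex that carries the T cell receptor's signal. Cd3d was at -1.82, -2.81, -2.15 and -2.84 in Sham replicates 1 to 4 and -1.02, -2.97, -2.84 and -3.25 in TAC replicates 1 to 4. Cd3g was at -2.77, -3.68, -3.25 and -4.21 in Sham replicates 1 to 4 and -2.08, -4.08, -3.94 and -4.11 in TAC replicates 1 to 4. Both were highest on TAC replicate 1, second on Sham replicate 1 and next on Sham replicate 3, with intensity on TAC replicate 1 at 3.48-fold and 3.31-fold the median.

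Cd3e, which encodes a further chain of the complex, was at 1.38, 1.19, 1.30 and 1.08 in Sham replicates 1 to 4 and 1.27, 1.34, 1.21 and 1.06 in TAC replicates 1 to 4, a span of 0.33 over all 8 arrays. Cd4, the coreceptor of helper T cells, was at 2.95, 2.90, 2.80 and 2.86 in Sham replicates 1 to 4 and 2.78, 2.89, 2.81 and 2.82 in TAC replicates 1 to 4, and TAC replicate 1 was its lowest array. Neither probe tracked Cd3d or Cd3g. The second Cd4 probe, also above background on all 7 scanner arrays, was at -0.34 from its median on TAC replicate 1 and at 0.08 on Sham replicate 1. Its levels were between -4.51 and -3.86, far below those of the leading probe. Whether both probes report the same transcript was not tested.

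Cd8a, the coreceptor of cytotoxic T cells, was at -3.63, -4.24, -4.76 and -4.54 in Sham replicates 1 to 4 and -3.24, -4.64, -4.80 and -5.27 in TAC replicates 1 to 4, highest on TAC replicate 1 and Sham replicate 1, with a probe above background on 5 of 7 scanner arrays. Cd8b1, its partner chain, was above background on none. Of the other T cell genes, Cd2, Cd5, Lck and Thy1 were highest on TAC replicate 1, by 0.55 (Thy1) to 1.50 (Lck, the kinase at the T cell receptor) over their medians. Cd6 was high on 3 arrays, at -1.12 on TAC replicate 3, -1.58 on TAC replicate 1 and -1.94 on Sham replicate 4, against -3.44 to -3.21 on the other 5. Its second probe did not show these 3 arrays apart, with a deviation of -0.07 on TAC replicate 3 and 0.15 on TAC replicate 1.

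Lef1, a transcription factor of naive T cells, had another order and was singled out after its values were seen. It was at -1.19, -3.34, -1.38 and -3.51 in Sham replicates 1 to 4 and -2.79, -3.92, -4.35 and -3.72 in TAC replicates 1 to 4, so that Sham replicates 1 and 3 were more than 1 log2 unit above all other arrays. Its second probe was highest on Sham replicate 3 (1.46 over its median) and TAC replicate 1 (0.85), and not on Sham replicate 1 (-0.23).

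Of the 7 scanner arrays, some lymphocyte genes near the detection limit were above background on TAC replicate 1 and Sham replicate 3 alone. Il7r, the receptor for interleukin 7 on naive and memory T cells, was well above background on these arrays alone, at -3.15 on Sham replicate 3 and -2.51 on TAC replicate 1. Tcf7, a transcription factor of naive T cells, and Pou2af1, a coactivator of B cells, were detected on the same pair. Tcf7 read -4.06 on Sham replicate 3 and -3.94 on TAC replicate 1, and Pou2af1 read -3.56 and -3.40. Of the 6 leading probes of members above background on 2 arrays, 3 had this pair, where 1.29% of the 1866 probes of the array above background on 2 of the 7 did. The other 3 had Sham replicates 2 and 4 (Blk), Sham replicate 3 and TAC replicate 4 (Pax5), and Sham replicate 2 and TAC replicate 1 (Cd27, whose second probe was above background on 3 arrays and highest on TAC replicate 1). The members were chosen with TAC replicate 1 in view, so detection on it is partly fixed by that choice. The share over all probes is therefore no fair measure for this count. Detection flags of Sham replicate 1 were not used here, so it cannot be placed in this count, and its Il7r reading was -5.57.

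B cell genes were mostly dim. Cd79b, a chain of the B cell receptor's signalling pair, was above background on all 7 arrays, at -1.54, -2.14, -1.02 and -2.0 in Sham replicates 1 to 4 and -0.67, -1.98, -2.0 and -2.13 in TAC replicates 1 to 4. TAC replicate 1 was highest, Sham replicate 3 second and Sham replicate 1 next. Its partner Cd79a was above background on Sham replicate 2 alone, where it read -4.64, and Ms4a1, which encodes CD20, on Sham replicate 3 alone, where it read -3.74 against -4.51 on TAC replicate 1.

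Cxcr5, the receptor that guides B cells into follicles, was above background on no array. Cd22, an inhibitory receptor of B cells, was at 0.81, 0.81, 0.87 and 0.86 in Sham replicates 1 to 4 and 1.19, 0.84, 0.86 and 0.97 in TAC replicates 1 to 4, with TAC replicate 1 highest by a small step. Cr2, the complement receptor of mature B cells, was at -1.93, -2.13, -1.63 and -2.40 in Sham replicates 1 to 4 and -1.97, -2.45, -2.42 and -1.99 in TAC replicates 1 to 4, and its second probe was highest on Sham replicate 1, so the probes did not share an order. Bank1, a scaffold of B cell receptor signalling, was at -4.32, -3.82, -4.06 and -4.41 in Sham replicates 1 to 4 and -4.80, -2.05, -4.35 and -4.57 in TAC replicates 1 to 4. It was high on TAC replicate 2 only. The probe was not well above background on TAC replicates 1, 3 and 4, so these have no order, and its second probe was highest on Sham replicate 1 instead (1.01 over its median). The mean of the 4 B cell genes on TAC replicate 2, 0.47 over the median, rests on this 1 probe.

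The genes of lymphoid organisation followed 2 different orders. Ltb, the lymphotoxin chain by which lymphocytes signal to stroma, was at -1.22, -2.08, -1.02 and -2.33 in Sham replicates 1 to 4 and -0.16, -1.94, -1.58 and -2.08 in TAC replicates 1 to 4. Ccr7, the receptor that brings naive lymphocytes and dendritic cells into lymph nodes, was at -2.11, -2.63, -1.29 and -2.51 in Sham replicates 1 to 4 and 0.27, -2.56, -1.97 and -2.72 in TAC replicates 1 to 4. In both genes TAC replicate 1 was highest and Sham replicate 3 second, and Ccr7 on TAC replicate 1 was 5.99-fold the median, the widest step among the 25 genes tested.

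Cxcl13, the chemokine that draws B cells to follicles, was at -1.67, -2.37, -1.69 and -0.69 in Sham replicates 1 to 4 and -0.90, 0.11, -1.98 and -1.66 in TAC replicates 1 to 4. Its highest arrays were TAC replicate 2 and Sham replicate 4, on which Cd79b lay at -1.98 and -2.0, among its lower values. Cxcl13 and Cd79b thus did not share their leading arrays.

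**Figure D2:**
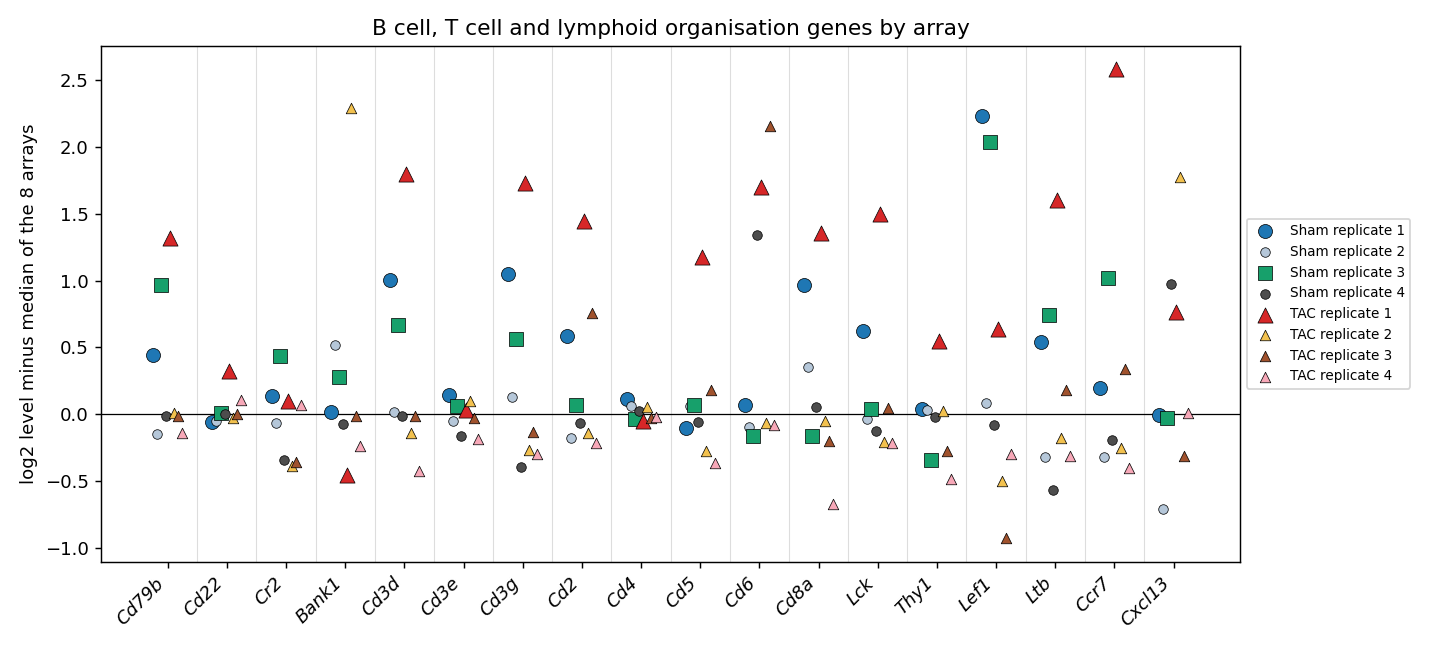
Level of the 4 B cell, 11 T cell and 3 lymphoid organisation genes tested, as log2 minus the gene's median over the 8 arrays (vertical axis), with 1 point per mouse. TAC replicate 1 leads in 11 of the 18 genes, and Sham replicate 3 is second in Cd79b, Ltb and Ccr7. Sham replicate 1 is second to it in 5 T cell genes, among them Cd3d, Cd3g, Cd8a and Lck. Cd3e and Cd4 stay within 0.33 log2 units.

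Over the 25 genes tested, TAC replicate 1 was the highest array in 17, where it was the highest for 17.4% of the 33378 probes tested on the array, and it was at least 1 log2 unit above the median in 16, against a background of 3.04%. These counts describe the choice of the genes. TAC replicate 1 and Sham replicate 1 were the 2 highest arrays for 11 of the 25 genes, against 5.19% of all probes tested, among them all 4 MHC class II chains, both pan-leukocyte genes and 5 T cell genes. TAC replicate 1 and Sham replicate 3 were the 2 highest for 3 of the 25 (Cd79b, Ltb and Ccr7), against 2.47% of all probes. Both pair counts include TAC replicate 1 and so also carry the choice of the genes. The shares over all probes are therefore no fair measure for them. A level at least 1 log2 unit above the median was reached on Sham replicate 1 by 3 of the 25 genes (Lef1, Cd3d and Cd3g), where 0.665% of all probes did, and on Sham replicate 3 by 2 (Lef1 and Ccr7), where 0.581% did. For Lef1 the second probe was at -0.23 on Sham replicate 1 and at 1.46 on Sham replicate 3. Genes of the same cell type can move together, so these small counts are a description only.

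The second place of Sham replicate 1 differed by group of genes. As the mean deviation from the medians, the 5 MHC class II genes were at 0.61, -0.05, -0.07 and 0.11 on Sham replicates 1 to 4 and 1.04, -0.08, -0.16 and -0.28 on TAC replicates 1 to 4. The 2 pan-leukocyte genes were at 0.86, 0.25, -0.34 and -0.03 on Sham replicates 1 to 4 and 2.12, -0.09, 0.01 and -0.23 on TAC replicates 1 to 4. In both groups Sham replicate 1 lay between TAC replicate 1 and the other 6 arrays.

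The 11 T cell genes were at 0.61, 0.03, 0.25 and 0.04 on Sham replicates 1 to 4 and 1.08, -0.14, 0.14 and -0.30 on TAC replicates 1 to 4. The 3 genes of lymphoid organisation were at 0.24, -0.45, 0.58 and 0.07 on Sham replicates 1 to 4 and 1.65, 0.45, 0.07 and -0.24 on TAC replicates 1 to 4. With normexp background correction, which flattens dim probes, the T cell mean on TAC replicate 1 was 0.62 and the B cell mean on TAC replicate 2 was 0.17. Sham replicate 1 was thus raised with the T cell genes and hardly with lymphoid organisation, where Sham replicate 3 was second. The 4 B cell genes were at 0.13, 0.06, 0.42 and -0.11 on Sham replicates 1 to 4 and 0.32, 0.47, -0.10 and -0.05 on TAC replicates 1 to 4. Their highest means were those of TAC replicate 2, which rests on Bank1, and Sham replicate 3. Over the scanner arrays, with only probes above background on every array, which leaves Bank1 out, the highest B cell means were 0.60 on TAC replicate 1 and 0.50 on Sham replicate 3, with -0.10 on TAC replicate 2. With all probes of a gene averaged, TAC replicate 1 was also highest, at 0.45.

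**Figure D3:**
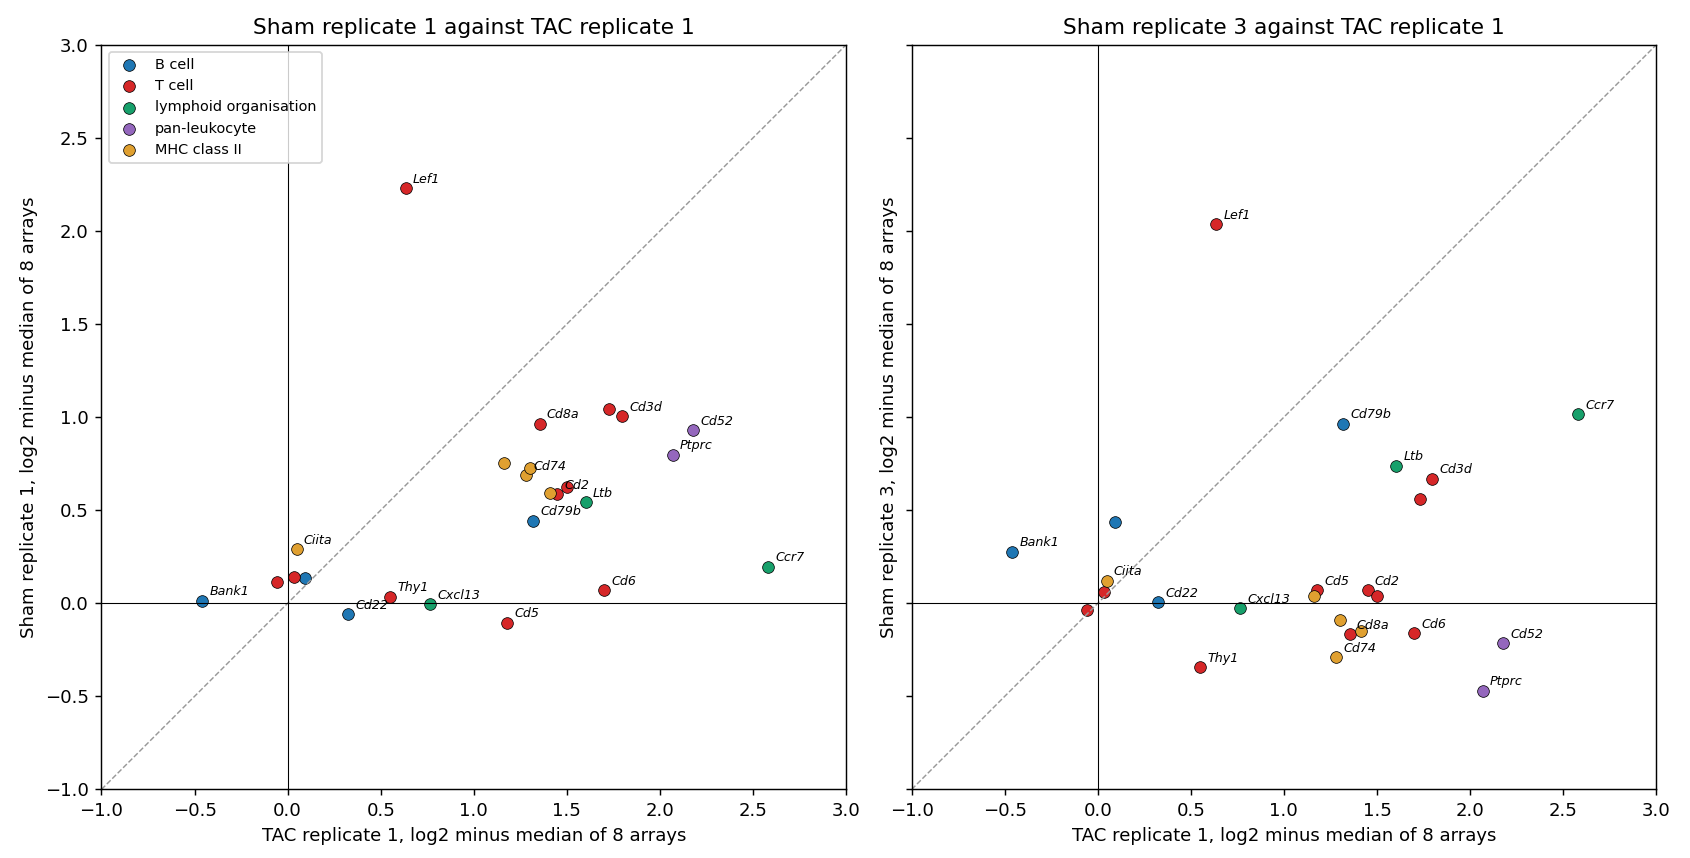
Deviation of each of the 25 genes from its median over the 8 arrays in log2 units, with TAC replicate 1 on the horizontal axis of both panels and Sham replicate 1 (left) or Sham replicate 3 (right) on the vertical axis; colours give the group of genes, the dashed line marks equal deviation, and most points carry their gene's name. Sham replicate 1 lies above 0 for the MHC class II and pan-leukocyte genes, Sham replicate 3 for Cd79b, Ltb, Ccr7, Cd3d and Lef1 and below 0 for Cd52, Ptprc and Cd74.

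Genes outside the 35 were examined in 14 lists to see which other cell types moved with these arrays. Of the other MHC class II pathway genes, 8 of 10 were tested, 7 were highest on TAC replicate 1 and 5 had TAC replicate 1 and Sham replicate 1 as their 2 highest arrays. Ctss, the protease that trims the invariant chain, was at 1.90, 1.53, 1.17 and 1.52 in Sham replicates 1 to 4 and 4.03, 1.02, 0.92 and 0.84 in TAC replicates 1 to 4, and H2-Oa, a chain of the regulator of peptide loading whose promoter is printed above, was at -2.63, -3.88, -3.74 and -4.08 in Sham replicates 1 to 4 and -2.13, -4.11, -3.70 and -4.47 in TAC replicates 1 to 4. Both had TAC replicate 1 highest and Sham replicate 1 second. Rfxank, a subunit of the complex bound at the X box, varied from 1.82 to 2.18 and was lowest on TAC replicate 1.

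The 9 MHC class I pathway genes all had TAC replicate 1 and Sham replicate 1 as their 2 highest arrays. Psmb8, a subunit of the immunoproteasome, was at 3.29, 2.25, 2.27 and 2.14 in Sham replicates 1 to 4 and 3.41, 2.36, 2.39 and 2.30 in TAC replicates 1 to 4, with these arrays nearly level. B2m, the light chain of class I molecules, was at 7.18, 6.50, 6.83 and 6.63 in Sham replicates 1 to 4 and 7.71, 6.50, 6.57 and 6.63 in TAC replicates 1 to 4. The list's mean deviation was 0.60 on Sham replicate 1 and 0.72 on TAC replicate 1, and between -0.08 and 0.09 on the other 6.

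Part of the NK and cytotoxic cell genes followed the same pair of arrays. Of 8 tested, 4 had TAC replicate 1 and Sham replicate 1 as their 2 highest. Gzmb, which encodes granzyme B, was at -1.47, -3.44, -4.97 and -3.84 in Sham replicates 1 to 4 and -0.66, -4.64, -3.97 and -4.68 in TAC replicates 1 to 4. Klrd1, a receptor chain of NK cells, was at -3.11, -4.72, -5.44 and -4.92 in Sham replicates 1 to 4 and -1.87, -5.32, -5.01 and -4.29 in TAC replicates 1 to 4. Both were above background on 3 of the 7 scanner arrays. Gzmk of the same list went the other way, at -0.41 on TAC replicate 1 minus the mean of the other TAC arrays. The list's mean was 1.09 on TAC replicate 1, 0.80 on Sham replicate 1 and -0.27 on Sham replicate 3. Its median was 0.28 on TAC replicate 1 and 0.40 on Sham replicate 1.

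Myeloid genes were raised mainly on TAC replicate 1. The dendritic cell list averaged 1.44 on TAC replicate 1, 0.41 on Sham replicate 1 and -0.25 on Sham replicate 3. Itgax, which encodes CD11c, was at -1.41, -2.63, -3.56 and -3.08 in Sham replicates 1 to 4 and 0.22, -3.32, -2.38 and -3.13 in TAC replicates 1 to 4. Zbtb46 of that list went the other way, at -0.38 on TAC replicate 1 minus the mean of the other TAC arrays. The macrophage list averaged 1.01 on TAC replicate 1, 0.20 on Sham replicate 1 and -0.11 on Sham replicate 3, with 10 of 12 genes highest on TAC replicate 1. Lyz2, a lysozyme of macrophages and neutrophils, was at 0.52, 0.17, -0.32 and 0.25 in Sham replicates 1 to 4 and 1.79, -0.41, -0.61 and -0.46 in TAC replicates 1 to 4, while Cd163, a receptor of resident macrophages, was lowest there (-4.41, against -4.01 to -2.50 on the others).

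Among the 6 homing genes of naive lymphocytes, 3 were highest on TAC replicate 1. The list's mean was 0.79 on TAC replicate 1, -0.17 on Sham replicate 1 and 0.41 on Sham replicate 3. Plasma cell genes went otherwise, at 0.17 on TAC replicate 1, 0.80 on Sham replicate 1 and -0.26 on Sham replicate 3, led by Jchain, the joining chain of secreted antibodies, which was at -0.05, -2.77, -2.84 and -2.80 in Sham replicates 1 to 4 and -1.07, -0.81, -2.63 and -2.0 in TAC replicates 1 to 4. The summed intensity of the plasma cell genes on TAC replicate 1 was 36.5, at the lower end of the Sham range. The other B cell list, with 6 of 10 genes tested, averaged 0.43 on TAC replicate 1, 0.34 on Sham replicate 1 and 0.14 on Sham replicate 3. Its median was 0.20 on TAC replicate 1 and 0.22 on Sham replicate 1. Cd72 in it was at -0.42 on TAC replicate 1, -2.17 on Sham replicate 1 and -2.91 on Sham replicate 3. On TAC replicate 1 minus the mean of the other TAC arrays, Cd72 was at 2.88 and Vpreb3 at -1.15.

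Genes of lymph node stroma and vessels had list means near 0 on every array, over genes that went both ways. Of the 12 genes, 11 had a probe and 8 were tested, and the list's mean was -0.11, 0.04, -0.01 and 0.14 on Sham replicates 1 to 4 and -0.09, -0.03, -0.07 and -0.06 on TAC replicates 1 to 4. Ccl19 was between -1.77 and -1.56 on all 8 arrays, with -1.67 on TAC replicate 1. On TAC replicate 1 minus the mean of the other TAC arrays, Mfge8 was at 0.87 and Pdpn at 0.50, and Chst4, whose probe was above background in Sham arrays only, at -1.06. Glycam1, Il7 and Tnfsf11 were above background on none of the 7 scanner arrays, and no probe was matched to Ccl21a. The summed intensity of the list was 95.7 to 115 in Sham and 104 to 208 in TAC in units of the array constant, with the top value on TAC replicate 1 owed to Mfge8, a secreted glycoprotein also made outside lymph nodes, which stood at 7.57 there and at 6.28 to 6.81 elsewhere.

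The remaining lists serve as values beside these. Proliferation genes averaged 0.95 on TAC replicate 1, 0.22 on Sham replicate 1 and -0.07 on Sham replicate 3, other T cell receptor signalling genes 0.71 on TAC replicate 1, 0.14 on Sham replicate 1 and 0.20 on Sham replicate 3, and neutrophil and mast cell genes 0.94 on TAC replicate 1, -0.01 on Sham replicate 1 and 0.30 on Sham replicate 3, where S100a9, a calcium-binding protein of neutrophils, was at 0.33 on TAC replicate 1 and -1.04 on Sham replicate 3. Of the 6 neutrophil and mast cell genes tested, 3 were at least 1 log2 unit above their median on Sham replicate 3. The list's median was 0.37 on TAC replicate 1 and 0.55 on Sham replicate 3. Tpsb2 of the same list was at -0.58 on TAC replicate 1 minus the mean of the other TAC arrays. Skeletal muscle genes averaged 0.81 on TAC replicate 1, 0.83 on TAC replicate 4, -0.08 on Sham replicate 1 and 0.06 on Sham replicate 3. Of these 7 genes, 5 were highest on TAC replicate 1, against 17.4% of all probes tested, so this lead was not particular to immune genes. Their lowest means were on Sham replicate 2 (-1.84) and TAC replicate 3 (-1.61), so the order of the other arrays differed from that of the immune genes. Of the brown adipocyte genes, Elovl3, a fatty acid elongase, was at 1.26, 1.78, 2.25 and 1.81 in Sham replicates 1 to 4 and -3.59, 1.02, 1.02 and -0.67 in TAC replicates 1 to 4. Its lowest array was TAC replicate 1, and 8 of the 11 genes of that list were highest on Sham replicate 3.

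**Figure D4:**
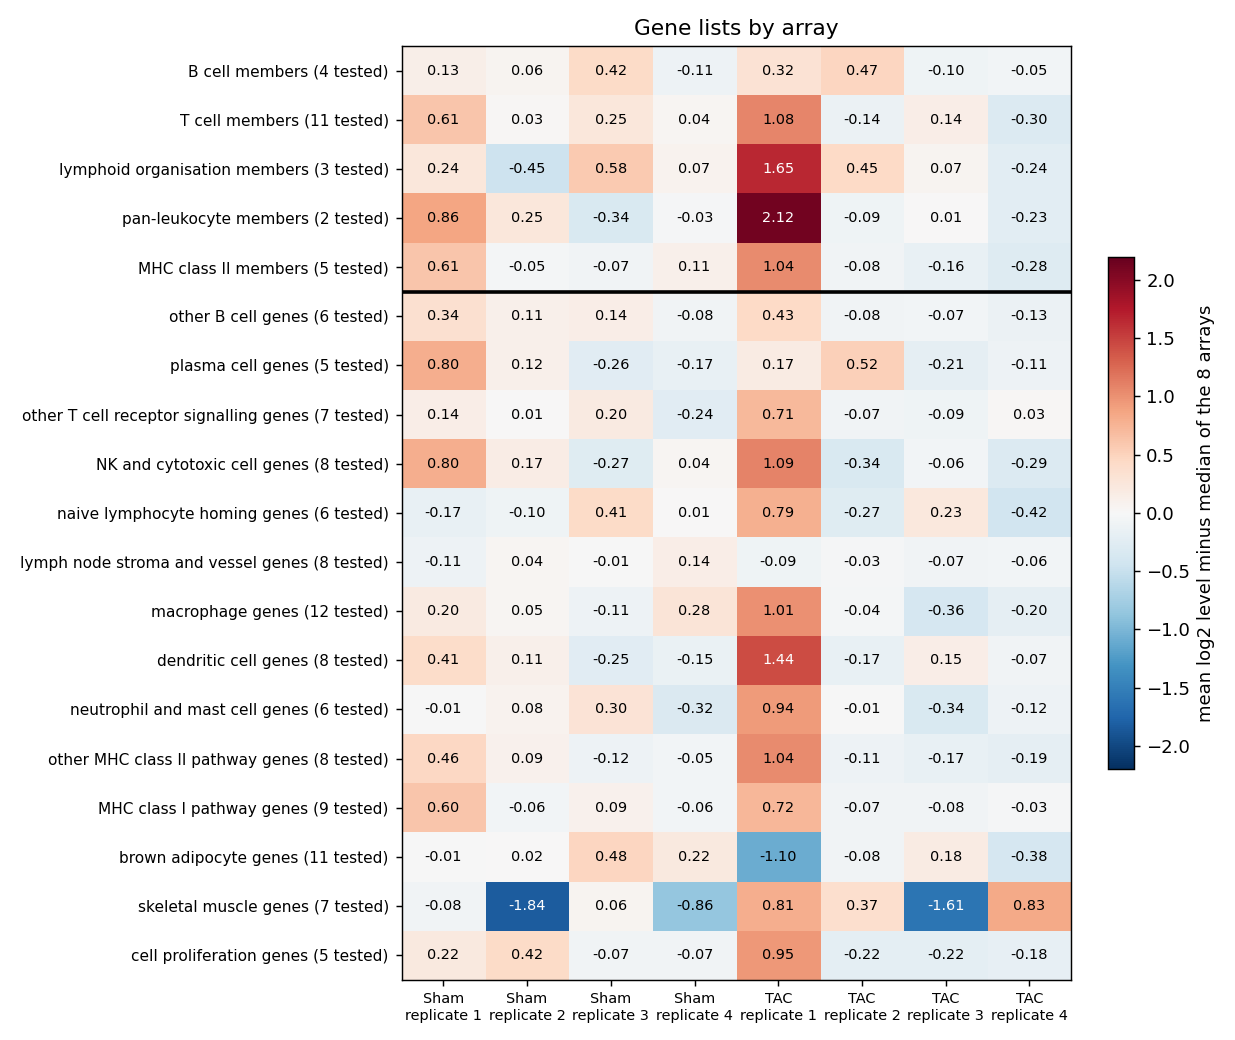
Mean deviation of each gene list (rows, the first 5 being the genes described here) on each array (columns), in log2 units from each gene's median over the 8 arrays, with red above and blue below. By this mean, TAC replicate 1 is above 0 in every immune list. It is the highest array in all of them but the first B cell row and the plasma cell row. Sham replicate 1 is raised mainly in MHC class I and II, T cell, NK, pan-leukocyte and plasma cell genes. The lymph node stroma row lies between -0.11 and 0.14. By the list's median, Sham replicate 1 was above TAC replicate 1 in the immune lists of NK, other B cell and plasma cell genes (0.58 against 0.25 in the last). Sham replicate 3 was above TAC replicate 1 in neutrophil and mast cell genes and in the first B cell row (0.36 against 0.21 in the latter).

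TAC was compared with Sham by limma over the 7 scanner arrays, with p-values adjusted over 33378 probes, to see whether the surgery changed these genes. None of the 25 genes passed an adjusted p of 0.05, and 0 passed unadjusted, where 0% of all probes passed adjusted and 4.24% (higher) and 8.61% (lower) unadjusted. The methods' t-test gave 0 of 25 by both measures too. The smallest adjusted p of limma was 0.522, for Lef1, whose TAC minus Sham difference was -0.93 ± 0.58 (SE, log2). The median difference of the 25 genes was 0.17 with 21 above 0, beside a median of -0.04 over all probes tested and 43.4% of them above 0. This fit includes TAC replicate 1, for which the genes were chosen, so their median and count above 0 are partly fixed by that choice. The values over all probes are therefore no fair measure for them.

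The median and the number of genes above 0 rested on TAC replicate 1. Without it the median over the scanner arrays was -0.11, with 8 of 25 genes above 0 against 46% of all probes. At an unadjusted p of 0.05, 0 of the 25 were then higher and 1 lower, where 4.51% of all probes were higher and 8.66% lower. H2-Eb1 was then lower at an unadjusted p of 0.0412, with a limma difference of -0.20 ± 0.08 (SE) and an adjusted p of 0.361, so it was not called. Not every difference shrank, since Lef1 went to -1.23, Cxcl13 from 0.49 to 0.42 and Bank1 from 0.16 to 0.45. With Sham replicate 1 added from the deposited table, the median was 0.09 over 8 arrays (15 of 25 above 0, against 42.3% of all probes) and -0.25 without TAC replicate 1 (5 of 25, against 44.7%). At an unadjusted p of 0.05 the table of 8 arrays gave 0 members higher and 0 lower (4.64% and 9.57% of all probes), and the table without TAC replicate 1 gave 0 higher and 1 lower, Lef1 (4.57% and 8.64%). With both arrays left out the median was -0.13 (7 of 25, against 42.7%). Cd74 went from 0.31 ± 0.35 (SE, limma, 7 scanner arrays) to -0.02 ± 0.12 without TAC replicate 1, and Cd52 from 0.59 ± 0.56 to 0.03 ± 0.11.

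No gene of the 25 had every TAC array above every Sham array, where 3.52% of all probes did, and none had every TAC array below, where 6.29% did. By group, the limma differences over 7 scanner arrays had medians of 0.08 for B cell, 0.09 for T cell, 0.41 for lymphoid organisation, 0.51 for pan-leukocyte and 0.25 for MHC class II genes, and without TAC replicate 1 they were -0.08, -0.12, -0.04, -0.04 and -0.14. The medians over 7 arrays include TAC replicate 1 and so also carry the choice of the genes.

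**Figure D5:**
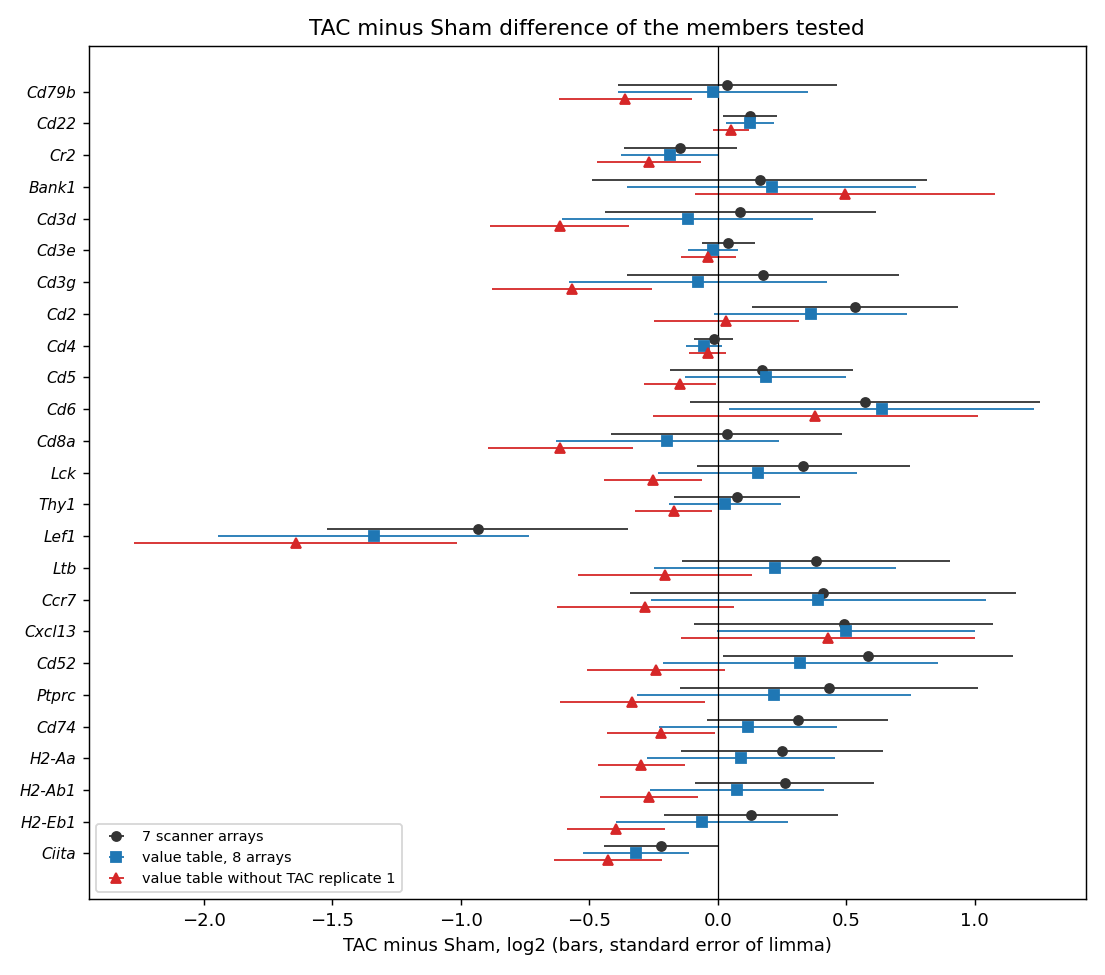
TAC minus Sham difference of the 25 genes tested, in log2 units (horizontal axis, bars for limma's standard error), over the 7 scanner arrays, the table of 8 arrays and that table without TAC replicate 1. Most points lie above 0 over the scanner arrays (21 of 25) and below 0 once Sham replicate 1 is in and TAC replicate 1 is out (20 of 25). The count over the scanner arrays includes TAC replicate 1, for which the genes were chosen.

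Among 15002 named genes compared, 235 outside the 35 had a Pearson r of at least 0.9 with the mean of the 5 MHC class II genes over the 8 arrays, and the 20 nearest had r of 0.964 to 0.986. The nearest were Casp4, an inflammatory caspase (r = 0.986, Spearman's rho = 0.976), Stmn1, a regulator of microtubules (r = 0.986), Prex1, an exchange factor of leukocytes (r = 0.983), Cd226, a receptor of NK and T cells (r = 0.980), and Stk38l, a kinase (r = 0.979). The 20 also held H2-DMb1 of the class II loading complex, Fcgr1 and Aif1 of macrophages, and Ccl5, a chemokine of T and NK cells. These values describe 8 arrays of which TAC replicate 1 and Sham replicate 1 lead in all 20 genes, and over the other 6 arrays r of the 20 ranged from 0.253 (Gbp3) to 0.969 (Fgr).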

How the data were processed

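The authors hybridised Cy3-labelled BAT RNA to one-colour Agilent arrays and extracted the spots with Agilent Feature Extraction 10.7.1.1, per the labels. The deposited intensity values of 7 scanner files had their background subtracted and no scaling between arrays. The deposited intensity table of 8 arrays held the same intensities divided by a constant per array (within 1% for at least 99.99% of probes above 100 units), and how it was made is not given in the sources used here. Its column medians were between -3.46 and -3.35 on the log2 scale.

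Here, log2 intensity minus the array's 75th percentile was averaged over the spots of a probe, without outlier spots. Probes well above background on at least 3 of 7 arrays, and measured on at least 2 per group, entered limma 3.58.1 (R 4.3.3; lmFit, then eBayes) without a replicate block, with p-values adjusted by Benjamini-Hochberg over 33378 probes. The number of arrays limits the precision. The procedure was tested on simulated data. Symbols came from RefSeq (GRCm38.p6) and matched 94.0% of the RefSeq accessions on the array, whose own design is on mm9. A gene was read from its probe with the highest mean level.

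The labels call the samples of a group independent, and p-values measure the spread between 1 array per mouse. The 35 genes, the other 14 lists and the tests were chosen with earlier results of these data known. Named were the MHC class II, lymphoid organisation and pan-leukocyte genes, 8 receptor genes (Cd79a, Cd79b, Ms4a1, Cd3d, Cd3e, Cd3g, Cd4 and Cd8a), the B and T cell genes with the 2 largest and 2 smallest differences of TAC replicate 1 from the other TAC arrays, the 3 largest and 1 smallest such genes of each other list, and genes most like the mean of the MHC class II genes. Not every gene that this rule gives is reported.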

Additional observations from a re-analysis of the deposited data

Results flagged for a closer look

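In 14 of 62 groups of 4 arrays looked at, 1 array lay apart from the other 3 by a gap, as a share of the group's range, above the 95% critical value of Dixon's test, which chance gives in about 1 of 20 groups. TAC replicate 1 was the array apart in 11 of them, and high in each. The MHC class II genes had gaps of 0.938 (Cd74), 0.915 (H2-Aa), 0.918 (H2-Ab1) and 0.952 (H2-Eb1), and their mean with Ciita had a gap of 0.847. The pan-leukocyte genes had gaps of 0.897 (Cd52) and 0.899 (Ptprc), with 0.898 for their mean. Among lymphocyte genes the gaps were 0.919 for Cd3g, 0.893 for Cd79b and 0.848 for Lck. These genes were chosen for that array, so the gaps restate the choice.

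The other 3 groups had another array apart. Bank1 was high on TAC replicate 2 with a gap of 0.838, which its second probe did not show. Cd6 was high on Sham replicate 4 within Sham, with a gap of 0.846, also not shown by its second probe. Thy1, which encodes a surface protein of T cells and other cells, was low on Sham replicate 3 within Sham, with a gap of 0.847.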

How the results depend on the processing

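The count of members past an adjusted p of 0.05 was 0 in limma with the settings of the report and in all 20 alternatives, including the methods' t-test, each array left out (0 to 0) and the averaging of a gene's probes. Over all probes the count was 0, with 1 under normexp background correction and 0 to 7 when each array was left out, the 7 arising without TAC replicate 4. The median TAC minus Sham difference of the members ran from -0.11 (without TAC replicate 1) to 0.36 (without TAC replicate 4) when each array was left out, and moved by less than the spread between arrays in all 19 alternatives (pooled SD 0.46), though its sign turned in every alternative without TAC replicate 1 and in the scanner fit with a replicate block. That pooled SD includes TAC replicate 1 and is larger than the median of 0.17 itself, so it is a wide measure. Of 496 differences of single members, 3 moved by more than the spread between arrays: Cd4 at 0.05 with quantile normalization and -0.16 with the mean of its probes, and H2-Eb1 at -0.40 in the table without TAC replicate 1. Yet without TAC replicate 1, 15 of the 25 members changed sign over the scanner arrays and 16 in the table. Leaving out Sham replicate 1 from the table, alone and with TAC replicate 1, was chosen after seeing the data.

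By the rule that every pair's correlation be over 0.1, replicate numbers did not pair the mice. Same-numbered arrays had correlations of deviations of -0.0255 to 0.000909 over 3 scanner pairs and 0.0195 to 0.269 over 4 pairs of the table, the highest being that of Sham replicate 1 with TAC replicate 1, and the others at most 0.0568. With the number as a replicate block, 0 probes passed in the scanner arrays and 0 in the table, no member passed, and the median difference of the members was -0.11 in the scanner arrays, where the block leaves TAC replicate 1 without a partner, and 0.09 in the table. For dim genes, background limits what can be read: 10 of the 35 could not be tested, and differences among values below background have no order.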
